A study of Mus musculus with 6 samples.

Results

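The transcripts described here are runs of 2 or more successive transcript IDs that differed between the genotypes in the same direction. They numbered 103 of the 55419 IDs in the table, in 48 runs. RNA was sequenced after rRNA depletion from mouse embryonic fibroblasts (MEFs), connective-tissue cells from embryos at E13.5, collected as dividing cultures at passage 4. There were 3 libraries of Rb1+/+ cells, wild type for Rb1, and 3 libraries of Rb1L/L cells, with 2 copies of an allele labelled L. The labels list no treatment, and whether replicates of a genotype came from different embryos is not stated. Their spread may therefore be partly technical.

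Rb1 encodes pRb, the retinoblastoma protein. pRb binds E2F transcription factors and holds back the genes they drive until a cell commits to DNA replication, and it also recruits chromatin proteins to promoters. Condensin II, named in the series title, is a protein complex that folds chromosomes. The title also speaks of divergently paired genes, which are neighbouring genes transcribed away from each other from a shared promoter region, so how neighbouring transcripts behave together is a question of the study. Neighbouring genes can share regulation, and transcripts of the same gene can share reads.

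The table names transcripts by UCSC-style IDs made of 3 digits, 3 letters and a version, with no gene name, position or length. Of the 55419 IDs, 0 matched the gene and sequence tables used here, so no gene, cell type marker or sequence is given. The IDs were put in serial order by their digits and letters, and IDs 1 step apart are called adjacent. Serial order stands in for neighbourhood only as far as the naming follows it. Whether adjacent IDs belong to 1 gene, to genes side by side or to a divergent pair was not tested.

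An ID entered a run when its mean over the 6 libraries was at least 5 CPM (the count relative to the column total), its 3 Rb1L/L values did not overlap its 3 Rb1+/+ values, the genotype means differed at least 1.5-fold, and an adjacent ID did the same in the same direction. The genotype difference was thus used to choose the IDs, and their levels and folds are a description with no test. The least-changed member differed 1.503-fold, and among adjacent IDs without overlap in a common direction the closest pair left out had a weaker ID at 1.497-fold. The lowest mean level of a member was 5.01 CPM. As lengths are not known, levels are compared between libraries and not between IDs.

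Column totals ran from 14325677 to 20525072 counts, each Rb1L/L library being shallower than each Rb1+/+ library. The most abundant ID took 9.02% to 9.51% of the counts in the Rb1+/+ libraries and 9.06% in Rb1L/L replicate 1, but 0.115% and 0.452% in Rb1L/L replicates 2 and 3. CPM of all other IDs in those 2 libraries is raised by that difference. On column totals the median log2 ratio of the 13313 IDs at 5 CPM or more was 0.10. After TMM scaling, which adjusts the library sizes so that most IDs do not differ, it was -0.03, a shift of 0.13.

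Of the 48 runs, 44 were higher in Rb1L/L (95 IDs) and 4 were lower (8 IDs). Of the 13313 IDs at 5 CPM or more, 977 (7.34%) met the same conditions as higher and 383 (2.88%) as lower, adjacency aside. Among the higher runs 39 held 2 IDs, 3 held 3 and 2 held 4, and every lower run held 2. No adjacent IDs of a run had identical counts in all 6 libraries (0 of 55 adjacent pairs), and neither did any of the 5052 adjacent pairs at 5 CPM or more.

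The excess of higher over lower runs depended on the scaling. With TMM-adjusted library sizes the same conditions gave 21 higher and 11 lower runs, with 5.03% of all IDs at that level higher and 4.71% lower. The higher share of all IDs meeting the conditions went from 71.8% to 51.7%. Of the 44 higher runs 20 met all conditions under both scalings, as did all 4 lower runs. In the 24 higher runs that did not, the weaker ID had a median fold of 1.60 on column totals. TMM scaling multiplies all IDs of a library by the same factor. The place of the members relative to the median of all IDs therefore changes little by construction. The 95 higher IDs had a median log2 ratio 0.90 above that median on column totals and 0.88 above it after TMM scaling. The 8 lower IDs stood at -1.71 and -1.65 relative to it.

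**Figure D1:**
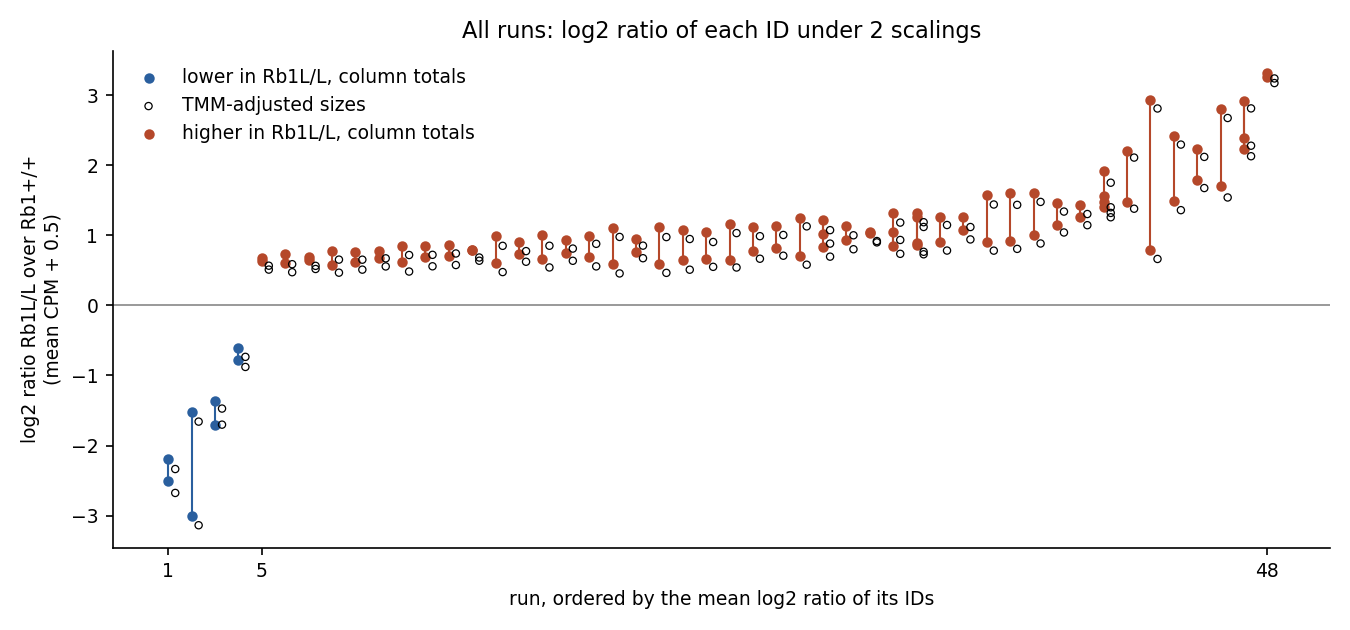
Log2 ratio of the genotype means (CPM + 0.5) for each ID of the 48 runs, 1 vertical line per run; filled points use column totals (red, higher in Rb1L/L; blue, lower) and open points beside them use TMM-adjusted library sizes. Runs 1 to 5 on the axis include the 4 lower runs, and the open points of the higher runs sit slightly below the filled ones.

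The folds of the higher IDs ran from 1.503 to 15.8 with a median of 2.00. At least 2-fold was reached by 46 of the 95 IDs, at least 3-fold by 17 and at least 4-fold by 11. In 11 of the 44 runs every ID differed at least 2-fold. The 8 lower IDs differed 1.54-fold to 8.69-fold, with a median of 3.18. The median level was 18.7 CPM for the higher and 20.1 CPM for the lower IDs.

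Of the higher runs, the one that begins with uc008qmn.2 had the largest summed level. uc008qmn.2 itself measured 5.46, 8.33 and 7.07 CPM in Rb1+/+ replicates 1, 2 and 3 and 14.8, 15.2 and 14.7 CPM in Rb1L/L replicates 1, 2 and 3, a 2.15-fold difference of the means (6.95 ± 1.44 against 14.9 ± 0.248, SD, n = 3 each). The 3 Rb1L/L values lay close together, well above the highest Rb1+/+ value. The next ID measured 3.22, 4.12 and 4.07 CPM against 7.30, 7.48 and 6.91 CPM, a 1.90-fold difference. The third ID of the run measured 292, 293 and 613 CPM in Rb1+/+ against 915, 1062 and 1009 CPM in Rb1L/L (2.49-fold). Here Rb1+/+ replicate 3 stood between the other Rb1+/+ libraries and the Rb1L/L libraries. Without it the log2 ratio of the third ID went from 1.32 to 1.77.

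The other named higher run, which begins with uc008qas.2, was chosen because its weaker ID differed most. uc008qas.2 measured 1.46, 0.843 and 0.679 CPM in Rb1+/+ against 15.5, 2.76 and 23.3 CPM in Rb1L/L replicates 1, 2 and 3 (13.9-fold). The next ID measured 1.02, 0.744 and 0.509 CPM against 16.1, 2.76 and 17.0 CPM (15.8-fold). In both IDs Rb1L/L replicate 2 was low and the other 2 Rb1L/L libraries were high, and the order of the Rb1+/+ libraries was also the same. Without Rb1L/L replicate 1, or without replicate 3, the mean fell below 5 CPM in at least 1 of the IDs and the run was lost.

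Among the lower runs the one beginning with uc007kem.1 had the largest summed level. uc007kem.1 measured 171, 110 and 106 CPM in Rb1+/+ replicates 1, 2 and 3 and 58.4, 31.6 and 59.5 CPM in Rb1L/L (2.60-fold lower). The next ID measured 21.8, 23.4 and 20.03 CPM in the wild type but 18.7, 0.0628 and 0.140 CPM in Rb1L/L replicates 1, 2 and 3. Its Rb1L/L replicate 1 value lay just under the Rb1+/+ range, while replicates 2 and 3 held 1 and 2 counts. The most abundant ID of the table split the libraries in the same way, with Rb1L/L replicate 1 beside the wild type. Without Rb1L/L replicate 1 the log2 ratio of the next ID went from -1.71 to -5.21.

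The run beginning with uc009kdk.1 was the lower run whose weaker ID differed most. uc009kdk.1 measured 15.01, 15.8 and 22.6 CPM in Rb1+/+ against 1.10, 8.80 and 0.628 CPM in Rb1L/L replicates 1, 2 and 3 (5.07-fold lower). The next ID measured 7.65, 7.69 and 12.7 CPM against 0, 0 and 3.70 CPM (7.57-fold lower). Unlike in the run of uc008qas.2, different Rb1L/L libraries were high in the 2 IDs: replicate 2 in the first and replicate 3 in the next. Without Rb1L/L replicate 2 the log2 ratio of uc009kdk.1 went from -2.19 to -3.75, and without replicate 3 that of the next ID went from -2.50 to -4.30. Without any 1 of the Rb1+/+ libraries the mean of the next ID was under 5 CPM and the run was lost.

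**Figure D2:**
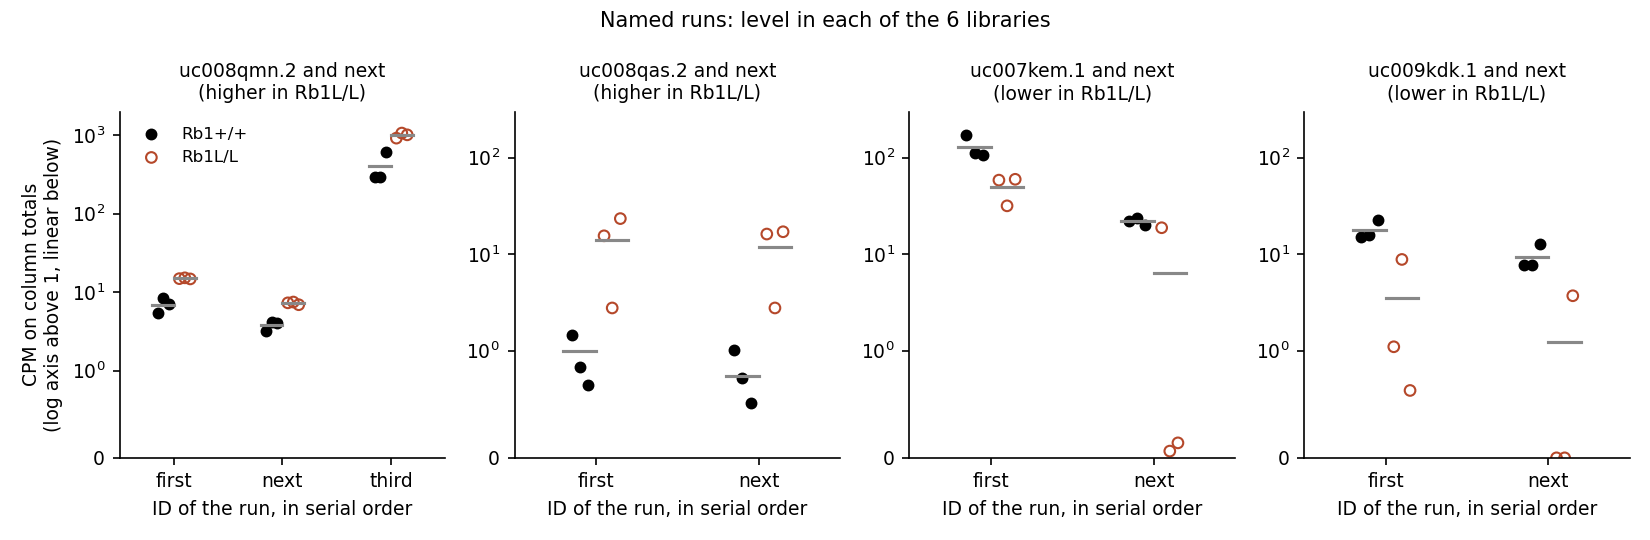
CPM on column totals of each ID of the 4 named runs (log axis above 1 CPM, linear below), with 1 point per library (black, Rb1+/+; open red, Rb1L/L) and a grey bar at each genotype mean. In the run of uc008qas.2 the same Rb1L/L library is lowest in both IDs, and in the next ID after uc007kem.1 the Rb1L/L libraries split into 18.7 CPM and values near 0.

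The 2 lower runs that are not named differed from each other in size. In one the first ID measured 37.4, 94.997 and 7.86 CPM in Rb1+/+ against 3.35, 5.40 and 7.40 CPM in Rb1L/L, and the next ID 44.9, 70.6 and 29.8 CPM against 10.6, 11.5 and 27.8 CPM. Both IDs ordered the Rb1+/+ libraries alike, with replicate 2 highest and replicate 3 lowest. In both, Rb1+/+ replicate 3 lay close to Rb1L/L replicate 3, the highest Rb1L/L library. In the other the IDs measured 7.65, 8.09 and 6.45 CPM against 4.87, 3.77 and 3.63 CPM, and 42.5, 39.4 and 44.3 CPM against 27.1, 25.6 and 29.2 CPM, smaller differences of 1.81-fold and 1.54-fold with little spread.

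There were 2 higher runs of 4 IDs. In the one with the larger summed CPM the second ID measured 152, 132 and 201 CPM in Rb1+/+ against 278, 325 and 300 CPM in Rb1L/L, and the third 152, 136 and 232 CPM against 291, 337 and 316 CPM. The counts of these 2 IDs differed by at most 13.3% in any library, the smallest difference among the 55 adjacent pairs. The first ID of this run measured 36.8, 35.8 and 52.1 CPM against 89.1, 127 and 96.4 CPM, and the last 25.5, 46.0 and 77.7 CPM against 111, 122 and 126 CPM. The last ID ordered the libraries differently from the others, and the ratio of adjacent IDs kept the genotypes apart in 2 of the 3 pairs of this run.

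In the other run of 4 IDs a single library set the size of the difference. Its first ID measured 2.05, 2.18 and 2.72 CPM in Rb1+/+ against 3.41, 2.95 and 24.01 CPM in Rb1L/L replicates 1, 2 and 3, and its last ID 7.75, 9.62 and 7.98 CPM against 13.6, 12.3 and 43.9 CPM. The other 2 IDs also had their highest value in Rb1L/L replicate 3, at 31.0 and 20.3 CPM against at most 8.48 and 5.53 CPM elsewhere. Without that library the run no longer met the conditions.

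A higher run of 3 IDs was well above the wild type in every Rb1L/L library instead, highest in replicate 2 and lowest in replicate 3. Its IDs measured 1.58 to 2.73 CPM in the Rb1+/+ libraries and 10.3 to 29.9 CPM in the Rb1L/L libraries, with folds of 5.48, 8.92 and 6.18. It met the conditions under TMM scaling and without any 1 library. The IDs of a run could also differ by unlike amounts: in 1 higher run the first ID measured 33.5, 31.1 and 37.9 CPM against 49.2, 75.3 and 53.9 CPM (1.74-fold), and the next 2.39, 1.74 and 2.43 CPM against 11.9, 36.5 and 11.7 CPM (9.17-fold). The ratio of the IDs of a pair kept the genotypes apart in 7 of the 55 adjacent pairs in runs, against 15.0% of all 5052 adjacent pairs at 5 CPM or more. A count of 0 in any library was seen in 2 of the 95 higher and 1 of the 8 lower IDs. The 2 higher ones were at 0 in Rb1+/+ libraries only, 1 of them at 0, 48.3 and 0 CPM in Rb1+/+ against 94.0, 147 and 104 CPM in Rb1L/L. The ID next after this one, at a mean of 40.6 CPM, was lower by the conditions, with a log2 ratio of -6.35. Whether the 2 share reads was not tested.

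No library, when left out, ended all runs. On column totals Rb1L/L replicate 1 was the Rb1L/L library nearest to the wild type in 45 of the 95 higher IDs. Replicate 3 was nearest in 34 and replicate 2 in 16. CPM in replicates 2 and 3 is raised by their low share of the most abundant ID, and whether that bears on these ranks was not tested. These ranks were not taken with TMM scaling. On the wild-type side Rb1+/+ replicate 3 was nearest to Rb1L/L in 49, replicate 2 in 31 and replicate 1 in 15. When each library was left out in turn, 20 of the 44 higher and 2 of the 4 lower runs met the conditions every time. Leaving out Rb1L/L replicate 2 ended 12 of the higher runs, replicate 3 ended 9, and each of the other libraries ended 4 to 7. With the 2 libraries low in the most abundant ID (Rb1L/L replicates 2 and 3) left out, 18 higher and 3 lower runs still met the conditions. That omission left only 1 Rb1L/L library, and members again could not come to overlap. Both the TMM scaling and every omission of a single library were met by 16 higher and 2 lower runs. These settings reuse the libraries that chose the runs, so the count is no independent check.

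How the libraries of the same genotype varied was described next. The conditions set no value for it, but their demand of no overlap acts on the spread of the same 6 libraries, so it is not independent of the choice and supports nothing about the runs. For each adjacent pair the genotype means were subtracted from log2(CPM + 0.5), and Pearson's r was taken over the 6 libraries. These values are descriptions: each rests on 6 libraries and 2 genotype means, and all pairs share the libraries and their scaling. In the 51 adjacent pairs of higher runs the median r was 0.67 (quartiles 0.23 and 0.86), and r was above 0 in 43. It was above 0.8 in 17 of them (33.3%), against 8.61% of all 5052 adjacent pairs at 5 CPM or more, whose median r was -0.08. In the 4 lower runs the median was -0.04, with 2 above 0 and 2 below. TMM scaling gave 12 adjacent pairs of lower IDs, with a median r of 0.66 and 83.3% above 0. The 4 and the 12 pairs are not the same set, so these medians do not compare the scalings on the same pairs.

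Adjacent IDs that met the conditions in opposite directions (36 pairs, 71 IDs) had a median r of -0.41, with 11 of 36 above 0. Pairs in which neither ID met the conditions had a median of -0.10 (4055 pairs). Among the members, r was 0.98 in the run of uc008qas.2, 0.91 and 0.45 along the run of uc008qmn.2, 0.41 in the run of uc007kem.1 and -0.56 in the run of uc009kdk.1. The run of 4 IDs set by Rb1L/L replicate 3 gave 0.99, 0.95 and 0.88, with that library far above the others in each ID.

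For IDs that were both higher, r was lower at larger serial distances. The median was 0.67 at 1 step, 0.26 at 2 steps (42 pairs), 0.42 at 3 steps (44 pairs) and 0.42 at 6 to 10 steps (121 pairs). From 21 steps on it lay between 0.12 and 0.15, with 0.15 at 201 to 500 steps (5179 pairs). TMM scaling gave 0.74 at 1 step (27 pairs) and 0.11 at 201 to 500 steps (2450 pairs). The pairs at every distance met the same conditions on the same 6 libraries. For opposite pairs the median went from -0.41 at 1 step to -0.06 at 201 to 500 steps.

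**Figure D3:**
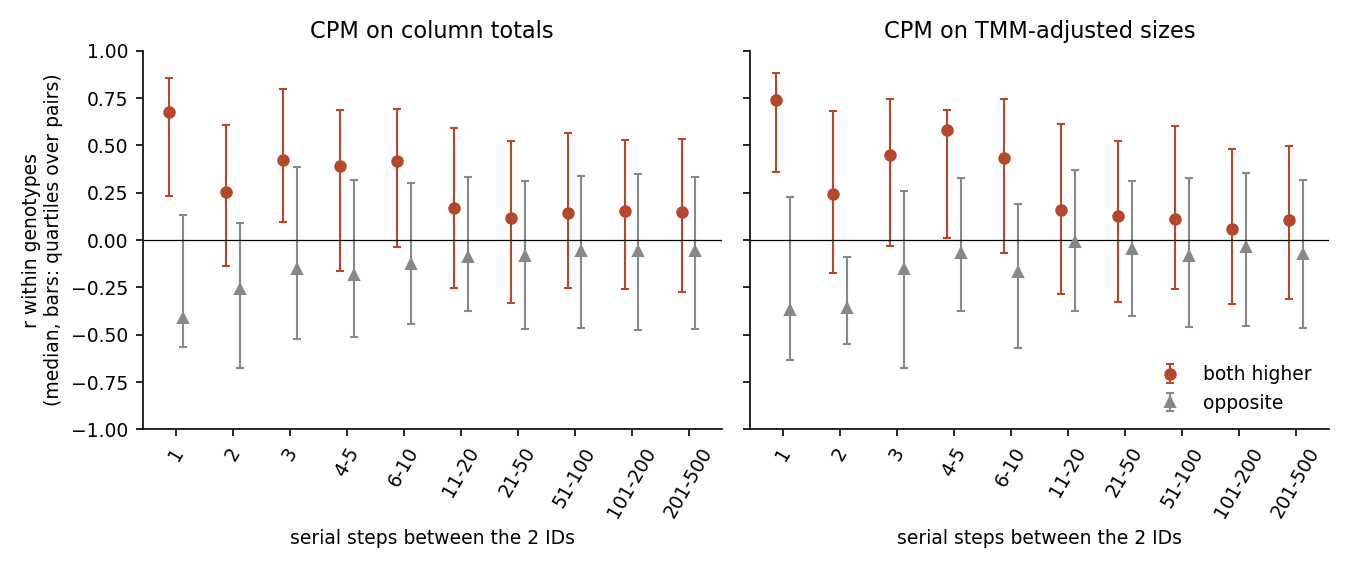
Median Pearson r within genotypes (bars, quartiles over pairs) of pairs of IDs that were both higher in Rb1L/L (red) or differed in opposite directions (grey), against the serial steps between them, under 2 scalings. Adjacent higher pairs stand at 0.67 and 0.74, and pairs over 20 steps apart stay between 0.06 and 0.15.

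The frequency of higher pairs also changed with serial distance. Both IDs were higher in 51 of the 5052 pairs 1 step apart (1.01%), in 0.969% of pairs 2 steps apart and in 1.08% of pairs 3 steps apart. The share was 0.571% at 11 to 20 steps and 0.534% at 201 to 500 steps. With TMM scaling it went from 0.536% at 1 step (27 of 5034 pairs) to 0.253% at 201 to 500 steps. Pairs lower together made up 0.0792% of pairs at 1 step (4 pairs) and 0.0877% at 201 to 500 steps. With TMM scaling they made up 0.238% (12 pairs) and 0.231%. So few pairs at 1 step cannot show whether lower pairs have a slope. Opposite pairs were at 0.713% at 1 step and 0.432% at 201 to 500 steps. With TMM scaling opposite pairs were at 0.735% (37 pairs) and 0.49%, at 1 step more frequent than higher pairs. A larger share at 1 step was thus not particular to IDs higher together. The pairs share IDs and libraries, and these shares carry no test.

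**Figure D4:**
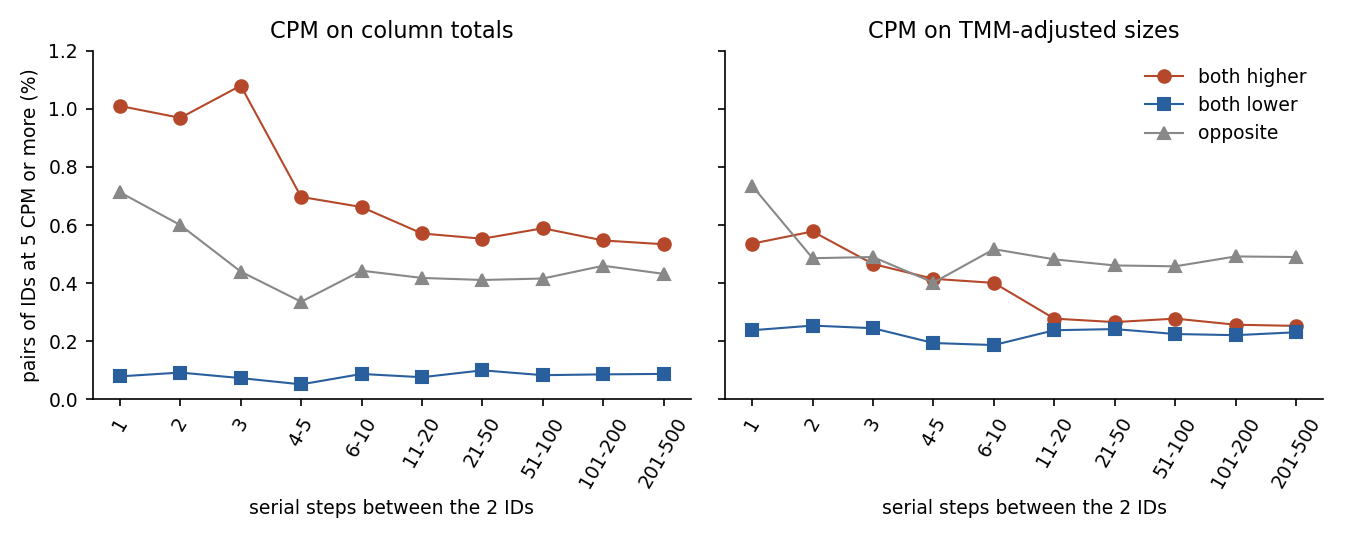
Share of pairs of IDs at 5 CPM or more (%) that were both higher in Rb1L/L (red), both lower (blue) or opposite (grey), against the serial steps between the 2 IDs, for column totals and TMM-adjusted sizes. The red line falls from 1.01% to 0.534% and from 0.536% to 0.253%. The blue line ends near where it starts, and its first points rest on 4 and 12 pairs.

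Some higher runs lay near each other in the series. Runs in the same direction with at most 100 steps between them were joined into ranges, a step chosen after the values were seen, and 16 of the higher runs fell into 5 ranges. How many would do so from the spacing of the IDs alone was not tested. The fullest range spanned 88 steps and held 7 higher runs (14 IDs). Of its 40 IDs at 5 CPM or more, 19 were higher and 0 lower by the conditions (47.5% higher), and 15 and 0 with TMM scaling, against 7.34% and 5.03% higher over all IDs. The 14 IDs of the runs define the range and are among the 19, and outside them 5 of 26 IDs were higher. The 26 IDs of the range outside the runs had a median log2 ratio of 0.54, and 24 of them were above 0. The other 2 lay below -5 but overlapped between the genotypes.

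The summed level of the 14 IDs in these runs was 429, 435 and 803 CPM in Rb1+/+ replicates 1, 2 and 3 and 1204, 1145 and 1058 CPM in Rb1L/L. Rb1+/+ replicate 3 again stood between the genotypes. Much of its place came from the ID with the highest level among the 14. That ID measured 164, 168 and 396 CPM in Rb1+/+ against 614, 437 and 399 CPM in Rb1L/L. In some other IDs of these runs replicate 3 was not the highest Rb1+/+ library. The sum of the other 26 IDs was 538, 647 and 522 CPM in Rb1+/+ against 880, 904 and 709 CPM in Rb1L/L, 1.46-fold higher on column totals and 1.35-fold higher with TMM scaling. In the sum of these 26 IDs Rb1+/+ replicate 3 was the lowest library and did not stand apart.

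**Figure D5:**
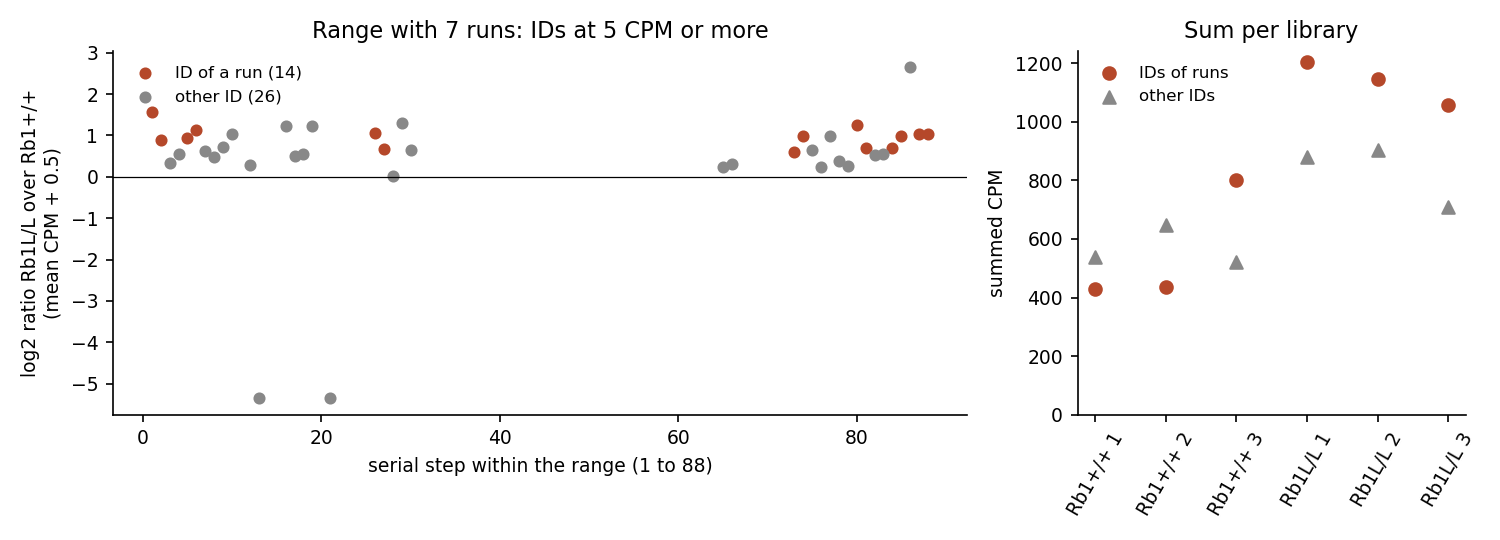
Left, log2 ratio of the genotype means (CPM + 0.5) of the 40 IDs at 5 CPM or more in the fullest range against their serial step, with IDs of runs in red and others in grey; right, summed CPM per library of both sets. All but 2 points lie above 0, and both sums are higher in each Rb1L/L library than in any Rb1+/+ library.

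The range with the next most runs spanned 31 steps and included the run of uc008qmn.2. It held 3 runs (7 IDs). Of its 14 IDs at 5 CPM or more, 9 were higher (64.3%) and 1 lower, against 7.34% and 2.88% over all IDs. The 7 IDs of the runs define the range and are among the 9. Outside them 2 of 7 IDs were higher and 1 lower. The 7 IDs of the runs summed to 451, 456 and 788 CPM in Rb1+/+ against 1194, 1351 and 1299 CPM in Rb1L/L, with Rb1+/+ replicate 3 in between. Most of these sums, and the place of Rb1+/+ replicate 3, came from the third ID of the run of uc008qmn.2 (292, 293 and 613 CPM in Rb1+/+). The other 7 IDs summed to 371, 387 and 407 CPM against 547, 534 and 459 CPM. That sum was 1.32-fold higher on column totals and 1.22-fold higher with TMM scaling, but only 4 of the 7 IDs had a log2 ratio above 0. The run of uc008qas.2 shared a range of 24 steps with 1 other run. Their 4 IDs summed to 6.97, 9.28 and 6.45 CPM against 58.6, 34.7 and 54.2 CPM, while the 10 other IDs of that range gave 361 ± 19.5 CPM in Rb1+/+ against 352 ± 48.5 CPM in Rb1L/L (mean ± SD of 3 libraries), which differ by less than the spread.

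Without the IDs of the 2 ranges with most runs, 34 higher and 4 lower runs were left. Both IDs were then higher in 0.799% of pairs at 1 step and 0.505% at 201 to 500 steps, and with TMM scaling in 0.401% and 0.235%. The median r of adjacent higher pairs was 0.75 without them (40 pairs).

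The IDs just outside the higher runs differed less, as an ID meeting the conditions would have been part of the run. Of the 83 IDs adjacent to a higher run, 45 were at 5 CPM or more, and their median log2 ratio was 0.17, against 0.10 over all IDs at that level. Of these 45, 25 had a ratio above 0, where the median over all IDs was itself above 0. By the conditions 2 of the 45 were lower, against 2.88% of all IDs at that level.

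Libraries that took no part in a choice were also read. The conditions were applied to 5 libraries, and the left-out library was asked to lie beyond every library of the other genotype, on its own genotype's side. Over the 6 omissions this held for 827 of the 1217 IDs in runs (68.0%), an ID counting once for each omission that chose it. For the IDs that met the same conditions outside runs it held for 7218 of 11174 (64.6%). The share in runs was lowest for Rb1L/L replicate 1, at 57.7% against 55.8% outside runs, and highest for Rb1+/+ replicate 1, at 83.3% against 74.3%. All IDs of a run kept to their side in 270 of 557 runs (48.5%). The shares inside and outside runs were close, and their order turned at a minimum of 10 CPM (65.0% inside and 66.6% outside) and of 2-fold (61.7% and 62.9%).

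edgeR's quasi-likelihood test over all 22085 IDs that passed its abundance filter, which kept all 103 members, called 0 members at a Benjamini-Hochberg adjusted p under 0.05, against 0.00906% of all IDs. The smallest adjusted p of a member was 0.135 (edgeR), and 68 of the 103 had an unadjusted p under 0.05, against 8.35% of all IDs. DESeq2 called 30 of the 103, against 3.83% of all IDs. As the members were chosen on this difference, nothing is read from these counts.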

How the data were processed

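The deposited data are raw counts, 1 column per library and 1 row per transcript ID. The submitters' processing notes list the build mm9 and the tools STAR 2.5.0a, StringTie 1.3.2 and, with no version, DESeq2, and give none a role. How reads were counted, by which strand and with which filters is not stated in those notes. Reads that fit several transcripts may be divided or counted more than once, which leaves the counts of transcripts that overlap or nearly match uncertain. The table held 0 columns of other samples.

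Groups came from the sample titles. CPM is the count divided by the column total. Log2 ratios add 0.5 CPM to each genotype mean. The whole table was fitted with edgeR 4.0.16 (R 4.3.3; filterByExpr, TMM, quasi-likelihood F test, 2-sided, Benjamini-Hochberg adjustment, threshold 0.05) with genotype as the only term; DESeq2 1.42.0 was an alternative. Scripts were tested on simulated data. The members and lists were chosen with earlier results of these data known. Named runs are, per direction, the run with the largest summed mean CPM and, of the others, the run whose weaker ID has the largest log2 ratio; each is named by its first ID. Other runs and the ranges were described after their values were seen. Depth limits low IDs: 5 CPM stands for 71.6 counts in the shallowest library and 103 in the deepest.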

Additional observations from a re-analysis of the deposited data

How the results depend on the processing

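The count of 48 runs was 32 with TMM scaling, 35 with the 20 largest IDs out of the totals, 48 with identical rows collapsed and 38 without the 2 fullest ranges. It was 98 at a minimum of 1 CPM, 25 at 10 CPM, 82 at the lower minimum fold tried, 15 at 2-fold and 80 with IDs up to 2 steps apart; these settings widen or narrow the conditions by construction. Leaving out 1 library gave 64 to 150 runs, since fewer libraries overlap less often, with the highest value without Rb1L/L replicate 1 (133 higher, 17 lower). Leaving out Rb1L/L replicates 2 and 3, chosen after seeing the data, as was leaving out the 2 ranges, gave 161 runs (86 higher, 75 lower). The count of members called was 0 with edgeR under RLE scaling, no filter and without any 1 library, and 30 with DESeq2; the cause was not tested.

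With the replicate number as a block (replicate block) edgeR called 0 members, 53 of them having an unadjusted p under 0.05 against 68 without it. The share of all IDs in the block fit is not given. Nothing is read from these counts, as the members were chosen on this difference. Deviations of libraries with the same number were nearly uncorrelated (0.013, -0.028 and 0.0011 across IDs), and the number was not treated as a pairing. The median r within genotypes of run neighbours, 0.62 over all 55 adjacent pairs, was 0.62 to 0.71 under the 4 alternatives. The share of run IDs whose left-out library kept its side was 68.0%, 65.9% with TMM scaling, 65.0% at 10 CPM and 61.7% at 2-fold (outside runs 64.6%, 64.4%, 66.6% and 62.9%). No log2 ratio of a named ID changed sign.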
